A study of Homo sapiens with 6 samples.

Results

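The genes described here are 10 transcription factors of the lung and epithelial lineage: FOXA1, FOXA2, GATA6, NKX2-1, ELF3, EHF, GRHL1, GRHL2, KLF5 and SOX9. They were chosen by name, with earlier results of these data known. All 25 probe sets annotated to exactly 1 of these symbols were taken, out of 54613 probe sets and 19775 genes. PC9/gef is a line established from PC9, with acquired resistance to gefitinib, which blocks the EGFR kinase. Its gefitinib-sensitive parent PC9 is a lung adenocarcinoma line with an activating EGFR mutation. Total RNA of 3 PC9/gef and 3 PC9 cultures, called biological replicates in the labels and grown in the same serum-containing medium, was hybridized to 1 array each. How the cultures of a line were separated is not given, so p-values measure the spread between these samples. Whether PC9/gef is a single clone, and whether gefitinib was in its medium at harvest, is not given in the sources used here.

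Lineage transcription factors set which genes an epithelial cell can use. FOXA1 and FOXA2 are forkhead pioneer factors that open chromatin, and with GATA6 and NKX2-1 they direct the formation of the lung from the foregut and the production of surfactant. ELF3 and EHF belong to the epithelium-specific branch of the ETS family, GRHL1 and GRHL2 are grainyhead-like factors that maintain cell junctions and the epithelial barrier, KLF5 is a zinc finger factor of proliferating epithelium, and SOX9 marks the growing tips of the embryonic lung.

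All values are on the log2 scale, so a difference of 1 is a 2-fold change in signal. The values of the 6 arrays lay between 1.65 and 15.72, and background level was 2.61, the 95th percentile of 107 probe sets of olfactory receptor genes, which were taken as silent in these cells. Arrays of the same line correlated with r of at least 0.9992 across probe sets, and arrays of different lines with r of at most 0.9944. With 3 arrays a line, the smallest two-sided p of an exact permutation test is 0.1, so p-values are from limma's fit over all probe sets. The number of arrays limits the precision. In RNA from whole cultures, fewer cells expressing a gene and less RNA per cell cannot be told apart.

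FOXA1, GATA6, ELF3, GRHL1, GRHL2 and KLF5 were lower in PC9/gef than in the parental line, EHF and SOX9 were higher, and NKX2-1 and FOXA2 did not exceed background level in either line. Thus 6 of the 10 genes were called lower and 2 higher at an adjusted p under 0.05 from limma. Over all genes, 13.4% were called lower and 14.4% higher, and among the 12185 genes above background level in at least 1 line the shares were 21.8% and 23.4%. Since the factors were chosen with earlier results of these data known, setting their counts beside these shares is no test of them as a set. All 8 measurable factors lay above background level in both lines, so none was counted through 1 line alone. The arrays of the lines did not overlap in any of these 8 genes, against 65.1% of the genes above background level and 55.7% of all genes. The changes were modest. None of the 10 genes changed over 2-fold on the probe set that represents it (2.88% of all genes did), and with a minimum change of 1.5-fold built into the test none was called in either direction (at an unadjusted p under 0.05, none higher and 1 lower). The median log2 change of the 8 measurable factors was -0.53, beside -0.0090 over all genes above background level.

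**Figure D1:**
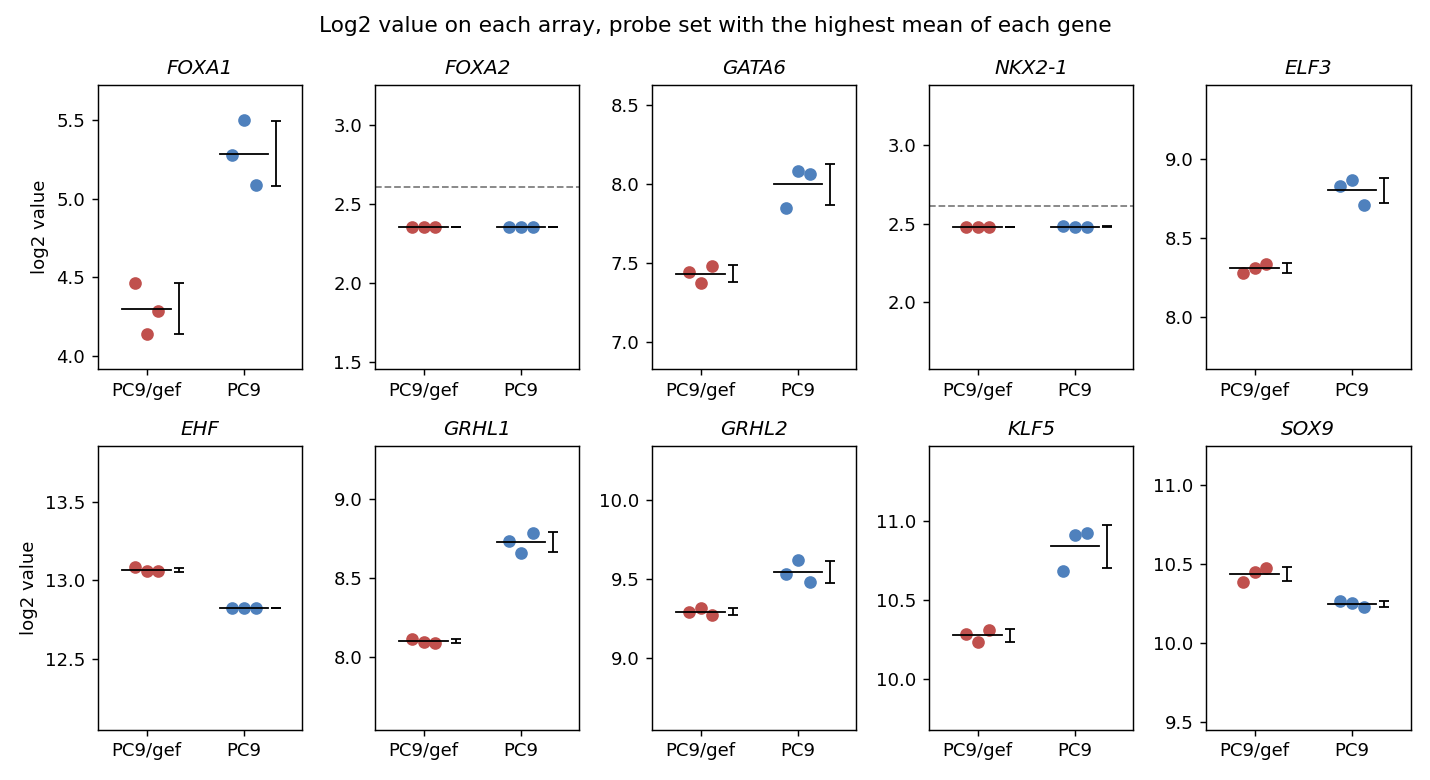
Log2 value of each of the 10 factors on every array (points), with the mean of each line (line) and its SD (bar, n = 3), PC9/gef left of PC9. Every panel spans the same range of log2 units, and the dashed line is background level (2.61). The PC9/gef arrays lie below the PC9 arrays in 6 genes and above them in EHF and SOX9, and FOXA2 and NKX2-1 lie under the dashed line in both lines.

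FOXA1 showed the largest change among the genes' representing probe sets. Its values were 4.47, 4.14 and 4.29 on the PC9/gef arrays, against 5.27, 5.50 and 5.08 on the PC9 arrays. Every PC9/gef array lay below every PC9 array. The means were 4.30 ± 0.16 in PC9/gef and 5.28 ± 0.21 in PC9 (SD, n = 3 each), a 1.98-fold lower signal (log2 change -0.98, 95% confidence interval -1.37 to -0.60, adjusted p = 0.010 from limma). Among the genes above background level, 4.82% had a larger change in size. The second FOXA1 probe set lay at background level in both lines (2.43 and 2.38) and says nothing on the change. With the mean of both probe sets, 1 of them at background level, the log2 change was -0.47 (adjusted p = 0.012 from limma).

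GATA6, a zinc finger factor of foregut endoderm, was also lower. It measured 7.45, 7.37 and 7.48 in PC9/gef, against 7.85, 8.09 and 8.06 in PC9. The lowest PC9 array was above the highest PC9/gef array, and the difference amounted to 1.48-fold (log2 change -0.57, 95% confidence interval -0.78 to -0.35, adjusted p = 0.0085 from limma). The other GATA6 probe set was at background level, at 2.32 in both lines, and the mean of both changed by -0.28 (adjusted p = 0.0084 from limma).

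NKX2-1, also known as TTF-1 and used to recognise lung adenocarcinoma in pathology, was not detected. Its 2 probe sets had means of 2.48 and 2.26 in PC9/gef and of 2.48 and 2.25 in PC9, all at background level. The limma fit gave the brighter of them an adjusted p of 0.041 for a log2 change of -0.0036, which is not counted as a change because neither line rose above background level. FOXA2, a relative of FOXA1 that activates surfactant genes, was likewise at background level on all 3 of its probe sets. The highest of them had a mean of 2.36 in both lines. At this signal a lower level of transcript was not detectable.

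The FOXA1 promoter window is shown as that of the factor with the largest change among the representing probe sets. With each gene read as the average of its probe sets, ELF3 (log2 change -0.86) and KLF5 (-0.61) changed more than FOXA1 (-0.47). It spans 250 bases before and 50 after the RefSeq transcription start, on chr14:37595200-37595499 (GRCh38.p14, minus strand). Capitals, here and in the windows further down, mark matches on either strand to letters bound by the factors' families or by the core machinery. The letters searched were TGTTTAC for forkhead factors and, as their variant, TGTTTGC, besides AGATAA for GATA factors, CAAGTG for NKX factors, GGAAG for ETS factors, AACCNGTT for grainyhead factors, CACCC for Krüppel-like factors, GGGCGG for the GC box, ACAAAG for SOX factors and TATAAA for the TATA box.
FOXA1: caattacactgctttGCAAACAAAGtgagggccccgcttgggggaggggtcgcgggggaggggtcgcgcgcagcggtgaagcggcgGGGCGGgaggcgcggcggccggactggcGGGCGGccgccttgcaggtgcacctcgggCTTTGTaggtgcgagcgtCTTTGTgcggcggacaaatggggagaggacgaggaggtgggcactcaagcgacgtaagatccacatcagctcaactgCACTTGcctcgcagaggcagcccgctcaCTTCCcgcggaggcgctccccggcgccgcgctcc
The window held 8 matches, among them 1 to TGTTTGC, which overlapped 1 of 3 to ACAAAG, and 2 GC boxes. Of all 35116 windows of this length, 3.89% held TGTTTGC, 16.1% ACAAAG and 45% a GC box. A match describes the letters only and shows no binding.

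The related factors ELF3 and EHF did not move together. ELF3, which is induced in differentiating epithelium, was lower on all 3 of its probe sets. The probe set that represents it measured 8.28, 8.31 and 8.34 in PC9/gef, against 8.83, 8.87 and 8.71 in PC9. All PC9/gef arrays lay under all PC9 arrays, by 1.41-fold on average (log2 change -0.49, 95% confidence interval -0.62 to -0.37, adjusted p = 0.0028 from limma). A second probe set gave 7.30, 7.22 and 7.37 in PC9/gef, against 8.22, 8.11 and 8.31 in PC9, a log2 change of -0.92 (95% confidence interval -1.10 to -0.73, adjusted p = 0.0023 over probe sets from limma). The third gave 6.61, 6.69 and 6.31 in PC9/gef, against 7.56, 7.75 and 7.78 in PC9. Its log2 change of -1.16 (95% confidence interval -1.50 to -0.82, adjusted p = 0.0070 over probe sets from limma) was the only one over 2-fold among the 25 probe sets (1.79% of all probe sets). The intervals of the other two do not overlap that of the representing probe set, so the direction of ELF3 was shared but its size depended on the probe set. Its mean over the 3 probe sets changed by -0.86.

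EHF was represented by a bright probe set on which the PC9/gef arrays stood at 13.08, 13.06 and 13.06 and the PC9 arrays at 12.83 each. The lines were apart, with little spread within each (SD 0.014 in PC9/gef and 0.0011 in PC9). The PC9 values as deposited were 12.8281, 12.8262 and 12.8262, so an SD this small may reflect their precision. The change was small, 1.18-fold higher in PC9/gef (log2 change 0.24, 95% confidence interval 0.22 to 0.26, adjusted p = 0.00016 from limma). On the other 5 EHF probe sets the arrays of the lines overlapped and none was called. Their log2 changes were between -0.080 and 0.26, with 95% confidence intervals that reached from -0.39 to 0.23 on the brightest of them and from -0.34 to 0.86 on the widest. With the mean over all 6 probe sets EHF was not called (log2 change 0.11, adjusted p = 0.11 from limma), so the higher level of EHF rests on 1 probe set.

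**Figure D2:**
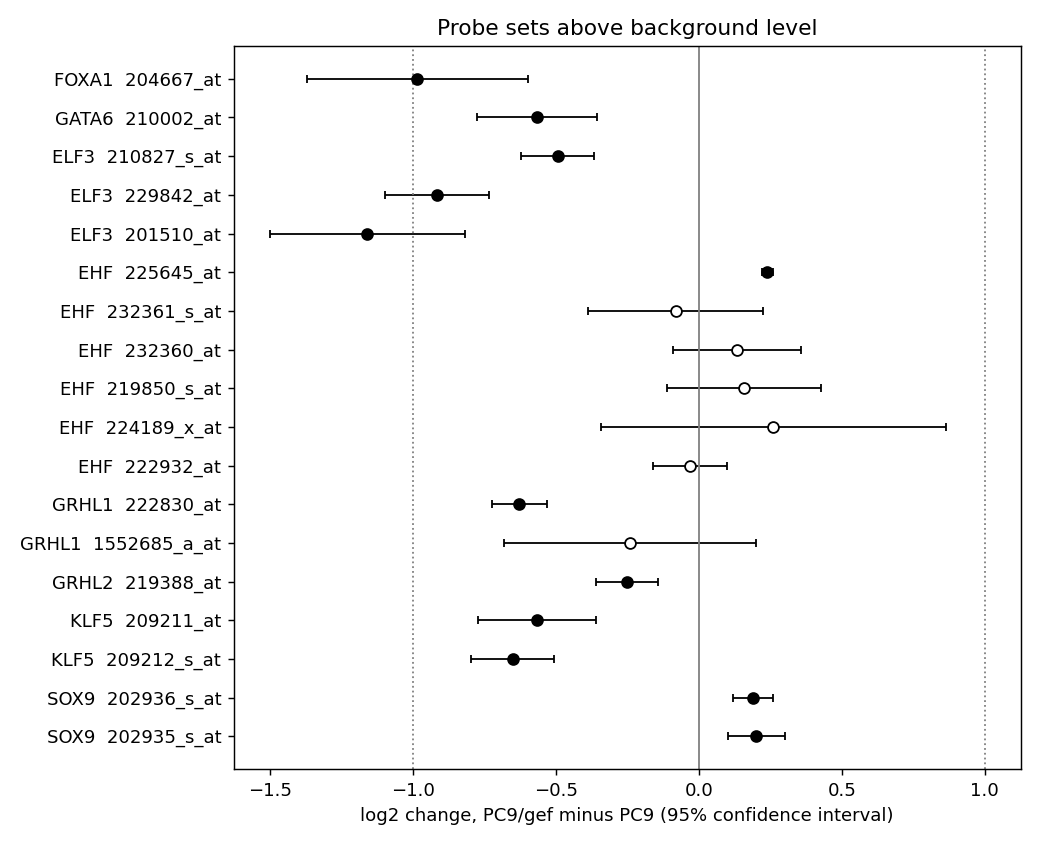
Difference in log2 value, PC9/gef minus PC9, for the 18 probe sets of the factors that lay above background level in at least 1 line, with 95% confidence intervals. Filled points were called at an adjusted p under 0.05 over all probe sets and open points were not, and dotted lines mark a 2-fold change. All 3 ELF3 and both KLF5 probe sets lie left of 0, whereas the intervals of the EHF probe sets other than the brightest include it. The dim GRHL1 probe set is not above background level in PC9/gef, so its point is a bound.

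The promoter windows of ELF3 and EHF are printed because these relatives differed in direction. ELF3 has 1 window, on chr1:202010337-202010636, and EHF has 2 annotated starts, on chr11:34624007-34624306 and chr11:34632316-34632615 (GRCh38.p14, plus strand).
ELF3: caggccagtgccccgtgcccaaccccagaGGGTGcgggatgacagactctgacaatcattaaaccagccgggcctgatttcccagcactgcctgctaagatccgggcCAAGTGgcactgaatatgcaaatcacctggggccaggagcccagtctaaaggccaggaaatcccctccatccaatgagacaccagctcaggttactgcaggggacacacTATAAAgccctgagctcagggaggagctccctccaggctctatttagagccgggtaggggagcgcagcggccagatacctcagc
EHF, first start: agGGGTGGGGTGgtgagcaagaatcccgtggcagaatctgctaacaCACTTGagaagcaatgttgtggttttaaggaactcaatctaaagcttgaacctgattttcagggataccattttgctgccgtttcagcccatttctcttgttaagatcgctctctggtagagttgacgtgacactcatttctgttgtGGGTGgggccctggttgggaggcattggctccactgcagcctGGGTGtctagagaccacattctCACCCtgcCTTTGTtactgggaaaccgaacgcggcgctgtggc
EHF, second start: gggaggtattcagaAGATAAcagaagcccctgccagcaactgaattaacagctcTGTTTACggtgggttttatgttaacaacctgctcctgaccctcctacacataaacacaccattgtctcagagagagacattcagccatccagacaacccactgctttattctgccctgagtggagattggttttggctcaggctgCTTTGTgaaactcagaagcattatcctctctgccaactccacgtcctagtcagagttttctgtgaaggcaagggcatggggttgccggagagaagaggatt
The ELF3 window held a TATA box, present in 11.5% of all windows, besides 1 CACCC and 1 CAAGTG match. The first EHF window held 5 CACCC matches, 1 CAAGTG match and 1 ACAAAG match. The second held 1 match to the forkhead letters TGTTTAC, 1 to the GATA letters AGATAA and 1 to the SOX letters ACAAAG. The ETS letters GGAAG, found in 71.9% of all windows, were in none of the 3.

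Both grainyhead-like members were lower in PC9/gef. GRHL1, which activates desmosomal genes in the epidermis, measured 8.11, 8.09 and 8.09 in PC9/gef, against 8.73, 8.66 and 8.79 in PC9. The gap between the lines was many times the spread of the PC9/gef arrays, and the signal was 1.54-fold lower (log2 change -0.63, 95% confidence interval -0.72 to -0.53, adjusted p = 0.00064 from limma). A dimmer GRHL1 probe set read 2.60, 2.60 and 2.56 in PC9/gef, at background level, against 2.69, 3.17 and 2.63 in PC9. Since PC9/gef was not above background level there, the difference is only a bound, at least 1.16-fold lower in PC9/gef, and it did not pass the test (adjusted p = 0.35 over probe sets from limma).
GRHL2, which activates E-cadherin and claudin genes and opposes ZEB1, measured 9.29, 9.32 and 9.27 in PC9/gef, against 9.53, 9.62 and 9.48 in PC9 on its only probe set. The arrays did not overlap, but the change was small, 1.19-fold lower (log2 change -0.25, 95% confidence interval -0.36 to -0.14, adjusted p = 0.013 from limma). It was not called without PC9/gef replicate 1 (adjusted p = 0.052 from limma) or 3 (adjusted p = 0.055).

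The window of GRHL1, the gene with the lowest adjusted p among the factors that were lower, lies on chr2:9951443-9951742 (GRCh38.p14, plus strand).
GRHL1: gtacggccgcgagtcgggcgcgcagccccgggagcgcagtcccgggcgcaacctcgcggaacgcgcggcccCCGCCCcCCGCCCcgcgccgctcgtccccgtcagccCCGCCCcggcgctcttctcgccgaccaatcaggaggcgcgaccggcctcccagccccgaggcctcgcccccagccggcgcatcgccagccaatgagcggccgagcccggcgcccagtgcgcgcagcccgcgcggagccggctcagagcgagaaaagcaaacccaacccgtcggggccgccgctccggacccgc
It was rich in CpG, with 52 such dinucleotides and a GC content of 79.7%. Its only matches were 3 GC boxes. The grainyhead letters AACCNGTT occurred in 1.73% of all windows and in none of the 10 windows taken for 7 of the 10 factors. No window of GRHL2, FOXA2 or SOX9 was among these.

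KLF5 and SOX9 changed in opposite directions, each on both of its probe sets. KLF5 measured 10.28, 10.23 and 10.31 in PC9/gef, against 10.69, 10.91 and 10.92 in PC9. No PC9/gef array reached the PC9 arrays, and the signal was 1.48-fold lower (log2 change -0.56, 95% confidence interval -0.77 to -0.36, adjusted p = 0.0081 from limma). The second KLF5 probe set, at 9.32, 9.34 and 9.32 in PC9/gef against 9.94, 10.09 and 9.90 in PC9, had a log2 change of -0.65 (95% confidence interval -0.80 to -0.51). SOX9 measured 10.39, 10.45 and 10.47 in PC9/gef, against 10.26, 10.25 and 10.23 in PC9, and was 1.14-fold higher (log2 change 0.19, 95% confidence interval 0.12 to 0.26, adjusted p = 0.0086 from limma). Its other probe set changed by 0.20 (95% confidence interval 0.10 to 0.30). Both SOX9 probe sets have names ending in _s_at, which can bind more than 1 transcript.
Counted over the 25 probe sets, 9 were called lower and 3 higher (7.68% and 7.61% of all probe sets), 6 were not called and 7 did not exceed background level. The higher count was 1 without PC9 replicate 1, 2 or 3, and the lower count was 5 without PC9/gef replicate 3.

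By size of change, the factors fell into a group with FOXA1, GRHL1, GATA6, KLF5 and ELF3 and a group with GRHL2, EHF and SOX9. In the first group between 4.82% and 18.0% of the genes above background level changed more than the factor, and in the second between 39.3% and 48.0% did. The genes nearest to FOXA1 in pattern, by Euclidean distance of the 6 values after subtracting their mean and among 12184 genes, were OSBPL6 (distance 0.24, log2 change -0.97), SCEL (0.26, log2 change -1.03) and SFRP1 (0.26, log2 change -0.94). Those nearest to EHF were NQO1 (distance 0.020, log2 change 0.25), ADNP2 (0.024, log2 change 0.23) and ZBTB33 (0.024, log2 change 0.23). With 6 arrays in 2 lines such a likeness describes mainly the difference between the lines.

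**Figure D3:**
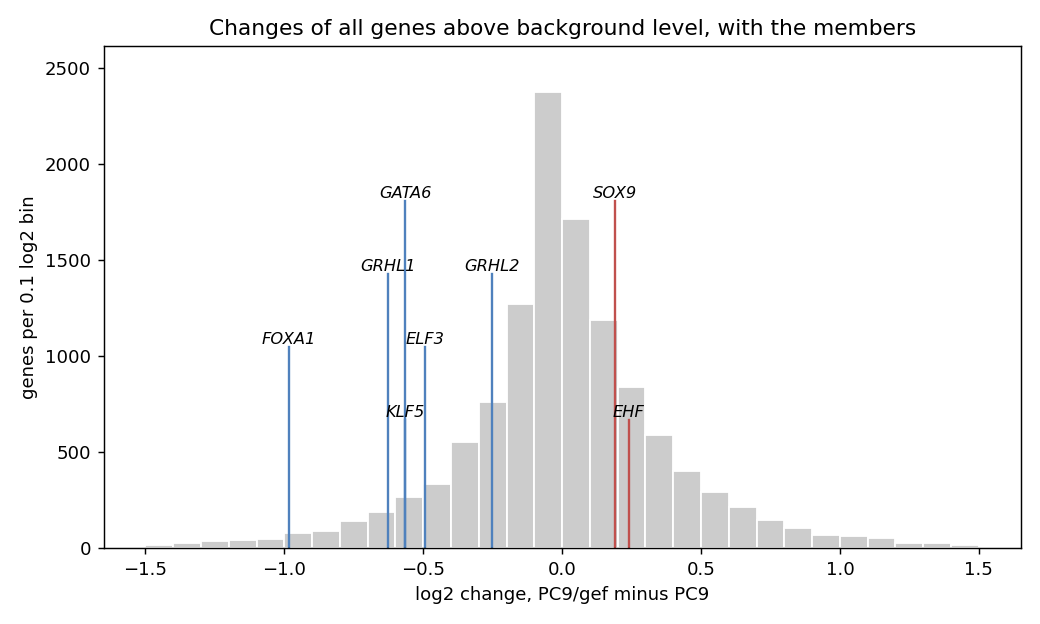
Number of genes per bin of 0.1 in log2 change, PC9/gef minus PC9, for the 12185 genes above background level (211 genes outside the range shown), with the 8 measurable factors as vertical lines whose height has no meaning. FOXA1 at -0.98 lies in the left tail, and EHF at 0.24 and SOX9 at 0.19 lie within the bulk of the genes.

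Relatives of the factors moved both ways. Their list and those below were also written with earlier results of these data known. Of 25 measured genes of the same families, 6 were higher, 3 were lower, 7 were not called and 9 lay at background level. The shares over all genes were 14.4% higher and 13.4% lower. ELF5, an ETS factor of glandular and distal lung epithelium, was 2.24-fold lower, with 8.40, 8.43 and 8.33 in PC9/gef against 9.44, 9.53 and 9.69 in PC9 (log2 change -1.17, adjusted p = 0.00095 from limma). That probe set is named _s_at, and the mean over the ELF5 probe sets changed by -1.16 (adjusted p = 0.030 from limma). The other 2 that were lower, GATA3 (1.16-fold) and GRHL3 (1.12-fold), changed little. KLF9, a Krüppel-like factor induced by glucocorticoids, was 2.0-fold higher on the probe set that represents it (log2 change 1.0, adjusted p = 0.0046). All its probe sets are named _s_at, and their mean changed by 0.34 (adjusted p = 0.023). SOX4, a factor of progenitor cells, was 1.77-fold higher (log2 change 0.83, adjusted p = 0.00035). NKX2-5, the cardiac relative of NKX2-1, was low in both lines and 1.77-fold higher (4.07 ± 0.20 in PC9/gef and 3.25 ± 0.039 in PC9, SD, n = 3 each, adjusted p = 0.0078 from limma).

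In a list of other transcription factors of the developing or adult lung, all called genes were lower. Relatives of the members, such as SOX4 and ELF5, are counted above and not in it. Of 18 measured genes of this list, 6 were lower, none was higher (nor at an unadjusted p under 0.05 from limma or the methods' t-test, where 9 were lower by either), 7 were not called and 5 lay at background level. Over all genes, 13.4% were called lower and 14.4% higher. The median log2 change of the list's 13 genes above background level was -0.27, beside -0.0090 over all genes above background level. IRX3, an Iroquois factor that patterns early organs, was 4.39-fold lower, with 7.25, 7.19 and 7.43 in PC9/gef against 9.39, 9.48 and 9.40 in PC9 (log2 change -2.13, adjusted p = 0.00021 from limma). NR2F1, an orphan nuclear receptor, was 1.91-fold lower and ETV4, an ETS factor downstream of FGF and ERK signalling in the lung bud, 1.70-fold lower (adjusted p = 0.0034 and 0.0049). CEBPD, a C/EBP factor of the acute-phase response and of airway cells, was 2.31-fold lower on the probe set that represents it (log2 change -1.21, adjusted p = 8.5e-05). That probe set is named _s_at, and on the remaining one CEBPD lay at background level.

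Genes that mark differentiated lung cells were mostly not detected in either line. The 17 measured genes include those of surfactant proteins and secretoglobins. Of them 13 lay at background level, as NKX2-1 and FOXA2 did, 3 were not called and 1 was lower. Over all genes, 7590 of 19775 lay at background level, 13.4% were called lower and 14.4% higher. The 3 not called, SFTPB, ABCA3 and LAMP3, were above background level in both lines. Their means were 4.33, 4.63 and 6.10 in PC9/gef and 4.31, 4.66 and 6.32 in PC9. The lower gene was LPCAT1, which makes surfactant phospholipid but is also widely used for membrane lipids, at 9.77 ± 0.057 in PC9/gef and 10.25 ± 0.040 in PC9 (SD, n = 3 each, 1.39-fold, adjusted p = 0.0016 from limma). Of 9 measured genes of the gut lineage, 7 lay at background level. TFF1, a secreted trefoil peptide of the stomach, was 6.02-fold lower, with 4.07, 3.78 and 4.65 in PC9/gef against 6.71, 6.91 and 6.65 in PC9 (log2 change -2.59, adjusted p = 0.0029 from limma).

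Genes of the epithelial programme, many of them known targets of grainyhead-like, ETS or KLF factors, moved both ways around little change. Of 22 measured genes, 5 were higher, 9 were lower, 7 were not called and 1 lay at background level. The median of those above it was -0.056, beside -0.0090 over all genes above it. Of all genes, 14.4% were called higher and 13.4% lower. OVOL2, a repressor of mesenchymal genes, was 2.03-fold lower (7.41 ± 0.013 in PC9/gef and 8.43 ± 0.026 in PC9, SD, n = 3 each, adjusted p = 4.6e-05 from limma), but on its remaining probe set not named _s_at it was not called (log2 change -0.029). ST14, which encodes the membrane protease matriptase, was 1.73-fold lower (log2 change -0.79, adjusted p = 0.0014) and LCN2, an iron-binding secreted protein, 1.58-fold lower (log2 change -0.66, adjusted p = 0.00015). CD24, a surface glycoprotein, was 1.76-fold higher (log2 change 0.82, adjusted p = 0.00011). It was read from a probe set named _x_at, and the mean over its probe sets changed by 0.57. Of the factors that repress the epithelial programme, 4 of 6 lay at background level. TWIST1 was above it and not called (6.07 in PC9/gef and 6.05 in PC9). SNAI2, known as Slug, was 2.11-fold higher (8.18 ± 0.044 in PC9/gef and 7.10 ± 0.077 in PC9, SD, n = 3 each, adjusted p = 0.00038 from limma).

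**Figure D4:**
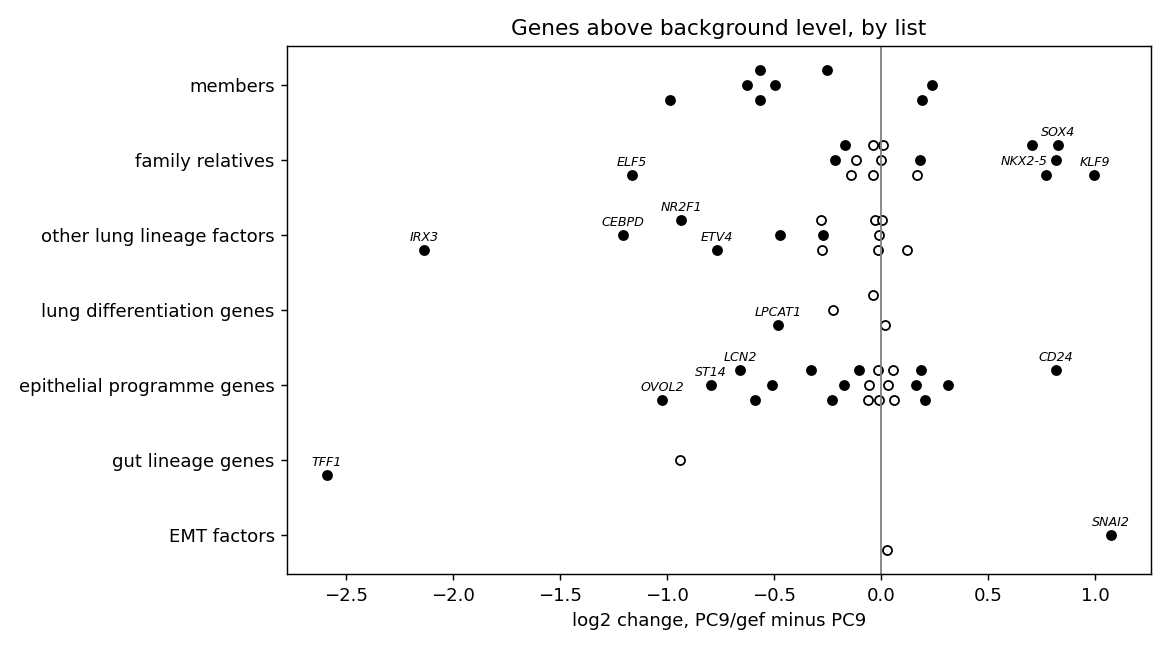
Difference in log2 value, PC9/gef minus PC9, for the genes above background level in each list, 1 point per gene, filled where called and open where not, with small vertical offsets for legibility. The other lung lineage factors that were called all lie left of 0, whereas family relatives and epithelial genes lie on both sides.

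The labelled cell type was checked against markers. The epithelial markers EPCAM, CDH1, KRT8, KRT18 and KRT19 were bright in both lines. EPCAM stood at 14.45 in PC9/gef and 14.46 in PC9, and KRT19 at 14.34 in PC9/gef and 14.31 in PC9, neither of them called. In PC9/gef the keratin gene KRT8 was 1.25-fold lower (log2 change -0.33, adjusted p = 0.00028 from limma) and KRT18 1.07-fold lower (log2 change -0.10, adjusted p = 0.0025), whereas CDH1, which encodes E-cadherin, was 1.14-fold higher (log2 change 0.19, adjusted p = 0.0058). Of other cell types' markers, 4 of 5 leukocyte, 5 of 6 fibroblast and 4 of 6 endothelial genes lay at background level. Among these were PTPRC, CD3E, COL3A1, DCN, CDH5 and VWF. Markers of the same lists that lay above background level in both lines were ITGAM, COL1A1, PECAM1 and CLDN5, the last not called. ITGAM stood at 4.93 in PC9/gef and 3.77 in PC9 (2.23-fold higher, adjusted p = 0.043 from limma). COL1A1 stood at 8.46 in PC9/gef and 7.94 in PC9 (1.43-fold higher, adjusted p = 0.038 from limma). PECAM1 stood at 6.49 in PC9/gef and 8.90 in PC9 (5.28-fold lower, adjusted p = 0.00015 from limma). The summed log2 level was 5.45 to 6.05 in PC9/gef and 5.09 to 5.10 in PC9 for the leukocyte list, 8.49 to 8.61 in PC9/gef and 7.95 to 8.30 in PC9 for the fibroblast list, and 6.78 to 6.98 in PC9/gef and 8.96 to 9.0 in PC9 for the endothelial list. Apart from ITGAM, COL1A1, PECAM1 and CLDN5 these sums add up genes at background level. They combine different probe sets and can only be compared between arrays. Their part in the results on the lineage factors was not tested.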

How the data were processed

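RNA of 3 PC9/gef and 3 PC9 samples was measured on Affymetrix Human Genome U133 Plus 2.0 arrays. The log2 values deposited by the authors are 1 per probe set and array, after background correction and normalization, with GC-RMA and GeneSpring GX named in the supplementary methods and RMA in the submitters' processing notes. They were used as deposited, and arrays can only be compared within a probe set. Of 54675 probe sets, 62 controls were removed. The annotation gave 41091 of the others 1 gene each, 1801 more than 1 gene and 11721 no gene. A gene with several probe sets was represented by the brightest on average over the 6 arrays.

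The lines were compared with limma 3.58.1 (R 4.3.3), PC9/gef minus PC9, over all 54613 probe sets, with Benjamini-Hochberg adjustment over 19775 genes or over all probe sets. A gene or probe set was called at an adjusted p under 0.05 where at least 1 line lay above background level, the 95th percentile of 107 olfactory receptor probe sets. The code was tested on simulated data. The members and gene lists were chosen with earlier results of these data known. Named were all members, up to 4 called genes with the largest change in each list, the markers of other cell types that were not at background level, and the 3 genes nearest in pattern to a member. GATA3, GRHL3, SFTPB, ABCA3, LAMP3, IRX2, RFX3, TFF2 and TWIST1 were named after their values were seen. Promoter windows are from RefSeq (GRCh38.p14). The alternatives were other normalizations, moderations, filters, probe set rules, thresholds and tests, the replicate number as a block, and leaving out each array. Plots used matplotlib 3.10.9 (Python 3.11.15).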

Additional observations from a re-analysis of the deposited data

How the results depend on the processing

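The 8 measurable factors kept their direction under all alternatives that gave a value, but most of these could not have reversed it. Tests, moderations, the block and thresholds leave a log2 change as it is. Since the arrays of the lines did not overlap, leaving out 1 array cannot reverse it either. Only the normalizations and probe set rules could. FOXA2 and NKX2-1 stayed at background level wherever they were measured. Without probe sets named _x_at or _s_at there was no value for SOX9, ELF5, KLF9 and CD24. In that setting 1 member gene, 1 member probe set and 3 epithelial genes were higher. ELF3, then read from another probe set, changed by -0.92. With a gene read as the mean of all its probe sets, 1 member gene was higher, since EHF (0.11) was not called. By that reading the changes of FOXA1 (-0.47), GATA6 (-0.28), CEBPD (-0.61), OVOL2 (-0.53) and KLF9 (0.34) were smaller and that of ELF3 (-0.86) larger, with all 6 still called. With a minimum change of 1.5-fold, 0 member genes and 0 member probe sets were higher or lower, so that FOXA1 (-0.98), GRHL1 (-0.63), GATA6 (-0.57), KLF5 (-0.56), ELF3 (-0.49), GRHL2 (-0.25), EHF (0.24) and SOX9 (0.19) kept their values but not their calls. By that test 261 genes in all were higher and 264 lower, of them 1 family relative higher and 1 lower, 2 other lung lineage factors lower, 1 epithelial gene higher and 1 lower, and 0 lung differentiation genes lower. Leaving out dim probe sets, 2 lung differentiation genes were lower. The methods' t-test called 2 member genes higher and 6 lower without adjustment, and 2 and 6 after Benjamini-Hochberg adjustment.

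Deviations from the line means correlated with r from -0.025 to 0.047 between same-numbered arrays. Between differently numbered arrays of the lines r was -0.065 to 0.050, and 3 of 6 arrays correlated best with their own number. With 3 arrays a line, these values cannot settle whether the replicate number pairs the samples. With the replicate number as a block 1 member gene was higher and 3 were lower, with 3 member probe sets lower. FOXA1 (-0.98, adjusted p = 0.078 from limma), GATA6 (-0.57, 0.062), KLF5 (-0.56, 0.055) and SOX9 (0.19, 0.079) were not called in that fit, which called 1830 genes higher and 1692 lower, among them 3 epithelial genes higher and 1 family relative lower.

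Leaving out each array in turn gave 5 to 6 member genes lower and 2 higher, 5 to 9 member probe sets lower and 1 to 3 higher, 3 to 5 epithelial genes higher, 1 to 3 family relatives lower, 1 to 2 lung differentiation genes lower, and a GRHL2 change from -0.28 to -0.21. Signal over background is what limits the readings of FOXA2, NKX2-1 and the dim probe sets of FOXA1, GATA6 and GRHL1.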
